A study of Mus musculus with 6 samples.

Results

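The regions described here are the open-chromatin peaks that lie just past the ends of genes in mouse definitive endoderm. They are the rows of the authors' peak table whose genomic location begins with the word Downstream, and number 847 of 70494 peaks (1.202%). Of these, 264 carry the class under 1 kb, 271 the class of 1 to 2 kb and 312 the class of 2 to 3 kb. The label rests on position alone, so signal was not used to choose these peaks from the others in the table. Entry to the table did depend on signal, since each peak overlaps a peak called in DMSO, in dTAG13 or in both.

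The assay was ATAC-seq: a transposase cuts chromatin where it is open and leaves sequencing adapters there. The cells came from mouse epiblast stem cells of the line 7H OTX2-dTAG-EGFP (BL6/129 hybrid), in which OTX2 carries a degradation tag and EGFP. This 1 line was used in both groups. Differentiation ran for 16 h in a chemically defined medium with Activin A at 40 ng/ml and CHIR at 3 uM, and then with Activin A at 100 ng/ml and LDN at 100 nM for a further 24 h. The treated group received dTAG13, which marks the tagged protein for degradation, for 24 h beginning at the primitive streak stage. The control group received the solvent DMSO for the same time. Live cells were sorted and 50000 cells went into each of 6 libraries, 3 per group. The series' design text calls the 3 libraries technical replicates, so the standard errors (SE) below measure the spread between libraries and may not include that between cultures. In the authors' deposited table, 13 of 14 definitive endoderm markers had a peak labelled as promoter, and Cldn6 did not. The same held for 6 of 6 epiblast, 5 of 8 mesoderm, 5 of 5 neurectoderm, 3 of 4 extra-embryonic endoderm and 1 of 3 blood markers, so promoter peaks alone did not set the tissue apart.

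RNA polymerase II runs on past the polyadenylation site of a gene before it ends transcription, and the stretch behind a gene end can hold enhancers, sites of the architectural zinc finger protein CTCF or promoters of neighbouring and antisense transcripts. OTX2 is a homeodomain transcription factor of the epiblast, the anterior endoderm and the forebrain, and its domain recognises the letters GGATTA, which read TAATCC on the other strand. TEAD factors, the DNA-binding partners of YAP and TAZ, recognise GGAATG.

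Sequences of 8 downstream peaks are given, since later results turn on the letters in them. They were chosen because they hold a motif, so they do not stand for downstream peaks in general. Each was read from the plus strand of mm10 (assembly GRCm38.p6), and capitals mark the motif. The first 5 peaks were lower in dTAG13 than in DMSO and hold the OTX letters.

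2210011K15Rik, chr1:121352742-121353023: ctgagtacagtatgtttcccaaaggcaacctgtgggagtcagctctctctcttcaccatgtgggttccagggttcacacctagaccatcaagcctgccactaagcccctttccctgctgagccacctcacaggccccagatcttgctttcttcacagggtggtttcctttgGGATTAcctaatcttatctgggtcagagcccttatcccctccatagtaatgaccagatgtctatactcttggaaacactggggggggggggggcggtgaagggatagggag
2210406O10Rik, chr5:36447407-36447560: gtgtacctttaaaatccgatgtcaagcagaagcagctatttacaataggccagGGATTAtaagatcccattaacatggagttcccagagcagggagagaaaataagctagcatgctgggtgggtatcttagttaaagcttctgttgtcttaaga
Pnrc1, chr4:33242643-33242746: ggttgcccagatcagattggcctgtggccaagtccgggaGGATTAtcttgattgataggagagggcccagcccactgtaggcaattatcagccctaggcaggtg
Sun5, chr2:153853607-153853841: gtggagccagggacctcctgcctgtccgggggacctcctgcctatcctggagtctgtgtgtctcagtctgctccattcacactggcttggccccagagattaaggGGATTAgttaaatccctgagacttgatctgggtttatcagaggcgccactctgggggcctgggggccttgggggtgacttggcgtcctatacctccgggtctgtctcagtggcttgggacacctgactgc
Fam114a2, chr11:57481076-57481249: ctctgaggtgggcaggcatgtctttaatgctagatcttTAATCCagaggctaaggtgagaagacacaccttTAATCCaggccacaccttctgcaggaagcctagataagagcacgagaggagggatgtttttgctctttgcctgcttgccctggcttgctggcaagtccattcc

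The peak behind Fam114a2 holds the OTX letters in 2 places, both on the minus strand. Another 2 peaks were higher in dTAG13 and hold the TEAD letters, in capitals.

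Cplx3, chr9:57598078-57598302: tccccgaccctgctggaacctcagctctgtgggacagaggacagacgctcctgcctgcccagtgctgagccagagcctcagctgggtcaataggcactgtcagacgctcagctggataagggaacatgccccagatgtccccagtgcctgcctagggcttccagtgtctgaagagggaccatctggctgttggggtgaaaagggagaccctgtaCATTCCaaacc
Plekhg2, chr7:28357064-28357225: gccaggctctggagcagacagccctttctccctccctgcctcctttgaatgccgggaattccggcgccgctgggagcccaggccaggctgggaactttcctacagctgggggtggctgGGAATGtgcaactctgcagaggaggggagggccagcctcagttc

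The last peak was not called in either direction and holds a CTCF consensus, in capitals.

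Lag3, chr6:124903671-124903874: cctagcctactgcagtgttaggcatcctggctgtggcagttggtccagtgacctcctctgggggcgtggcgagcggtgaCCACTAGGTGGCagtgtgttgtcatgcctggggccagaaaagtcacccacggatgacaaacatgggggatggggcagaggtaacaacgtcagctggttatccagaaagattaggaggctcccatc

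The position of the peaks was checked against GENCODE mouse release 21, whose genome build is that of the files. A gene end within 3000 bases upstream of the peak was found for 839 of 847 peaks (99.06%), at a median distance of 1493 bases (quartiles 679 and 2198). Protein-coding genes were the nearest gene end for 649 of the 839 (77.4%), lincRNA genes for 98 and processed pseudogenes for 27. These peaks followed 776 genes, of which 715 had 1 peak, 59 had 2 and 2, Capn11 and Cnot10, had 3. Only 20 of the 847 (2.36%) had a transcription start site within 1000 bases of the peak, and 50 (5.90%) overlapped an annotated transcript. The next coding gene pointed its own end at the peak in 405 of the 839 (48.3%) and its start in 434 (51.7%).

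The downstream label covered the ends of minus-strand genes and left out those of plus-strand genes. A minus-strand gene end lay within 3000 bases for 837 of 847 downstream peaks (98.8%). Among peaks labelled downstream or distal intergenic that had only a minus-strand end in reach, 723 were labelled downstream and 215 intergenic (77.1% downstream). With only a plus-strand end in reach, 2 were labelled downstream and 957 intergenic (0.209% downstream). The pattern was the same outside all transcripts and more than 3000 bases from any start site, where 674 of 785 peaks behind minus-strand ends and 0 of 834 behind plus-strand ends were labelled downstream. The labelled distance class equalled the measured one for 822 of 847 peaks (97.0%) on minus-strand ends. The cause of this asymmetry was not tested. The 957 intergenic peaks behind plus-strand genes are called plus-strand counterparts below. They lie at the same distances from gene ends, and the rule did not use them.

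**Figure D1:**
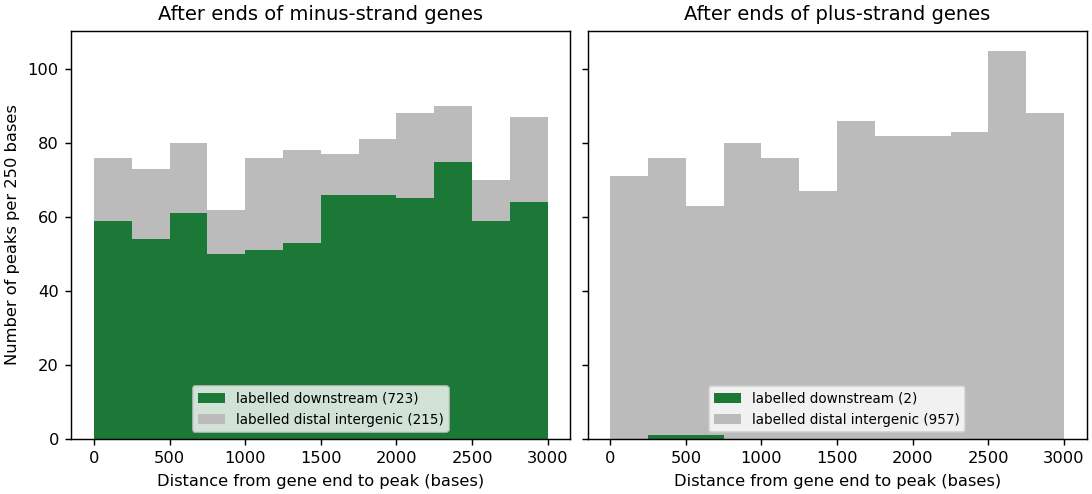
Number of peaks (y axis, per 250 bases) against the distance from a gene end to the peak in bases (x axis), for peaks with a gene end of 1 strand in reach; colours give the deposited label. Behind minus-strand genes 723 peaks are labelled downstream, at every distance up to 3000 bases, and behind plus-strand genes 2 are.

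The gene that the table names beside a downstream peak was often not the gene the peak follows. The 2 were the same for 469 of 839 peaks (55.9%), whereas the named gene was that of the nearest start site in release 21 for 715 of 847 (84.4%). The strongest member, for example, lies 2871 bases behind Gm17509 and carries the name of Emb, which encodes embigin, a cell-surface chaperone of lactate transporters. The peak behind Mbtps1, the site-1 protease that cleaves SREBP proteins, carries the name of the amino acid transporter gene Slc38a8. In what follows a peak is named by the gene whose end lies nearest. The table's name, which often differs, is added for some of the peaks only.

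The signal of most downstream peaks was low, as it was in other peaks away from promoters. The unit is the mean normalized count, the mean over the 6 libraries of reads in the whole peak divided by a size factor, not divided by peak length. In the authors' deposited table it had a median of 6.68 (quartiles 4.23 and 10.8, range 1.44 to 74.3) over the 847 peaks, against 5.69 over distal intergenic peaks, 5.54 over intronic peaks, 5.89 over the plus-strand counterparts, 7.34 over all other peaks and 12.8 over promoter peaks. It reached 20 in 77 of the 847 (9.09%). Their median length was 114 bases and their median GC content 54.0%. Totals of reads per library are unknown. The library size factors could be recovered from peaks with reads in a single group: they averaged 1.25 in DMSO and 0.855 in dTAG13, so that 3 reads per library correspond to a normalized count of 2.42 in DMSO and 3.54 in dTAG13.

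The 5 strongest downstream peaks were not called in either direction. The peak behind Gm17509 (named Emb, chr13:117215321-117215830) had implied group means of 73.3 in DMSO and 75.3 in dTAG13, with a log2 fold change in the authors' deposited table of 0.04 (SE 0.21). An implied group mean is the level that follows from the deposited mean over all libraries and the deposited fold change of dTAG13 over DMSO. Behind Dnah2, an axonemal dynein gene that ends near the promoter of the histone demethylase gene Kdm6b, the peak had 67.2 in DMSO and 54.1 in dTAG13, and a log2 fold change in the authors' deposited table of -0.31 (SE 0.22). The peaks behind Gpr84, an orphan receptor of myeloid cells, and Slc38a7, an amino acid transporter, had log2 fold changes, from the authors' deposited table, of -0.22 (SE 0.23) and 0.01 (SE 0.24). The fifth, behind the interferon gene Ifna13, had 50.7 in DMSO and 61.6 in dTAG13, with a log2 fold change in the authors' deposited table of 0.28 (SE 0.23). Per 100 bases their order differed: Ifna13, with 124 bases, had 45.3 normalized counts, and the other 4 had 14.3 to 18.2.

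The comparison of dTAG13 with DMSO asks which of these regions depend on OTX2. In the authors' deposited table, 47 of 831 downstream peaks with an adjusted p had one under 0.05 (5.66%, 95% Wilson interval 4.28 to 7.44%). Fewer cells with an open site and a site less open in each cell cannot be told apart in such bulk libraries. Over all peaks tested the share was 5.26%, so the downstream peaks were called about as often as peaks in general. Lower in dTAG13 were 35 (4.21%, against 3.79% of all peaks), and higher were 12 (1.44%, against 1.47%). With a log2 fold change of at least 1 in size as a further condition, 35 lower and 11 higher downstream peaks remained, where 3.76% and 1.28% of all peaks met it. Wilson intervals here and below cover counting error over peaks only, and peaks of 1 set of libraries are not replicates. By distance class, 20 of 262 peaks under 1 kb were called (7.63%), 14 of 263 at 1 to 2 kb (5.32%) and 13 of 306 at 2 to 3 kb (4.25%), with overlapping intervals. The plus-strand counterparts gave 49 calls among 922 (5.31%), 37 lower and 12 higher. How many went each way varied with the point taken as no change. The median of all peaks was -0.18 on the log2 scale, and setting it to 0 gave 29 lower and 21 higher downstream peaks (58.0% lower), in place of 35 and 12 (74.5% lower). Over all peaks the same shift gave 2056 lower and 1958 higher. Setting the median of the peaks in both groups' lists to 0 gave 38 and 12 downstream peaks (76.0% lower).

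**Figure D2:**
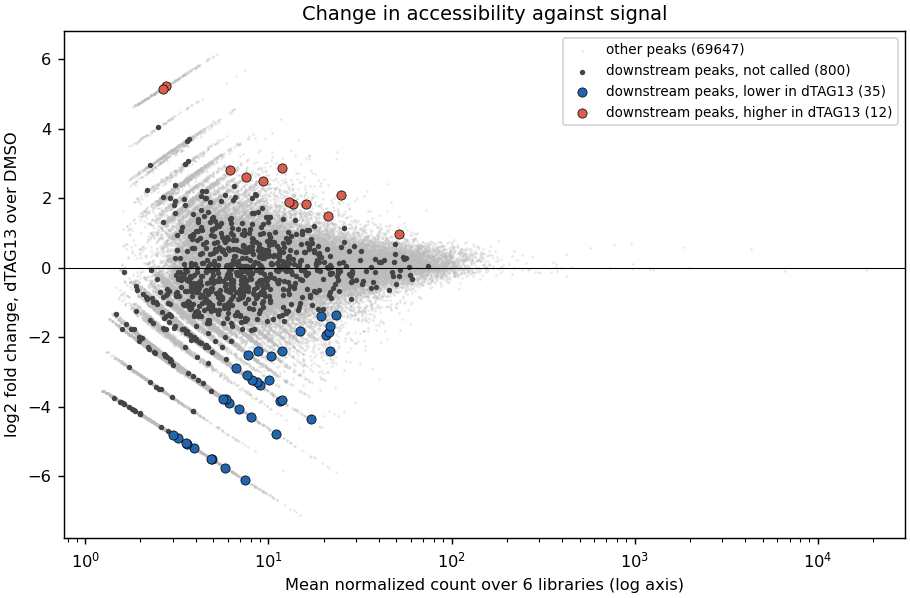
Deposited log2 fold change of dTAG13 over DMSO (y axis) against the deposited mean normalized count over 6 libraries (x axis, log scale), with 1 point per peak. The called downstream peaks, 35 lower and 12 higher, have mean normalized counts of up to 51.7, and the strongest downstream peaks lie close to a log2 fold change of 0.

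Over all 847 downstream peaks the log2 fold change had a median of -0.28 in the authors' deposited table (quartiles -1.01 and 0.43), against -0.38 for distal intergenic peaks, -0.34 for the plus-strand counterparts and -0.002 for promoter peaks. Stronger peaks lay nearer to 0: the 238 downstream peaks whose mean normalized count reached 10 had a median of -0.01. The median was -1.08 for downstream peaks in the DMSO peak list alone. It was 0.05 for those in both groups' lists and 1.34 for those in the dTAG13 list alone. The median over all 847 thus mixes peaks that entered the table through the signal of a single group. Among the authors' 4 numbered clusters, whose meaning is not stated in the sources used here, 13 downstream peaks were in C1 and 22 in C2, all lower, and 7 in C3 and 4 in C4, all higher.

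Among the 12 downstream peaks with more signal in dTAG13, the smallest adjusted p was behind Amn1 (chr6:149154236-149154624). This peak carries the name of Mettl20, now Etfbkmt, a methyltransferase of the mitochondrial electron transfer flavoprotein whose end faces that of Amn1. Its implied mean was 9.38 in DMSO and 40.3 in dTAG13, with a log2 fold change in the authors' deposited table of 2.10 (SE 0.38, adjusted p 3.83e-05). The second smallest was behind Cinp (chr12:110871385-110871588), which encodes a protein that binds the kinase CDK2. There the implied mean was 2.89 in DMSO and 20.97 in dTAG13, and the authors' deposited table gives 2.86 as the log2 fold change (SE 0.66, adjusted p 0.00205). The peak behind the lincRNA gene Gm26829 (chr11:22599003-22599432) had the highest signal of all called downstream peaks and the smallest change: 34.8 in DMSO and 68.7 in dTAG13, a log2 fold change in the authors' deposited table of 0.98 (SE 0.25, adjusted p 0.00627). It is the called downstream peak that the authors' clusters leave out.

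Behind Polr2h, a subunit shared by the nuclear RNA polymerases, the implied mean was 7.06 in DMSO and 25.2 in dTAG13, and behind the protein kinase gene Dyrk3 it was 11.2 and 31.4. The authors' deposited table gives their log2 fold changes as 1.84 (SE 0.49) and 1.49 (SE 0.40). Behind Plekhg2 the peak printed above had 2.82 in DMSO and 15.8 in dTAG13, a log2 fold change in the authors' deposited table of 2.49 (SE 0.73, adjusted p 0.0223). A second peak behind Plekhg2, 1209 bases past the end, had 57.9 in DMSO and 41.7 in dTAG13 and was not called (log2 fold change -0.47, SE 0.25, in the authors' deposited table).

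Pou4f1 encodes a POU homeodomain factor of sensory neurons. The called peak, 774 bases behind it, had 13.03 in dTAG13 and fewer than 3 reads per library in DMSO, a signal at least 5.38-fold higher in dTAG13. Here and below, fewer than 3 reads per library means an implied group mean under the value of 3 reads, since single libraries are not given. The bound, here and below, is the implied mean of the higher group over the value of 3 reads. It leaves out the SE, so it is not a confidence limit. The authors' deposited table gives a log2 fold change of 2.62 (adjusted p 0.0207). A second peak behind Pou4f1, 1024 bases past the end, had 14.6 in DMSO and 22.6 in dTAG13 and was not called, with a log2 fold change in the authors' deposited table of 0.63 (SE 0.46). The nearest start site to the called peak was that of D130079A08Rik, 1528 bases away. Cplx3, a complexin of ribbon synapses, was followed by a peak of 5.94 in DMSO and 21.3 in dTAG13, with a log2 fold change in the authors' deposited table of 1.85 (SE 0.52, adjusted p 0.0153). The peak behind Mb, the myoglobin gene, had 13 reads in dTAG13, over its 3 libraries together and as recovered from the size factors, and 0 in DMSO, and was at least 2.13-fold higher. It lay 218 bases from the start of Gm49540, so it is also close to a start site. The peaks behind Gm10138 (14 reads in dTAG13, 0 in DMSO) and Gm44956 were at least 2.22-fold and 4.47-fold higher in dTAG13.

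Behind Zfp423, a zinc finger transcription factor of neural and fat cell development, 2 downstream peaks 630 bases apart were called in opposite directions. The one nearer to the gene end, 655 bases past it (chr8:87661001-87661155), had 5.50 in DMSO and 20.5 in dTAG13, a log2 fold change in the authors' deposited table of 1.90 (SE 0.55, adjusted p 0.0206). The other, 1439 bases past the end (chr8:87660222-87660371), had 14.7 in DMSO and fewer than 3 reads per library in dTAG13, with a log2 fold change in the authors' deposited table of -2.39 (SE 0.77, adjusted p 0.0428). That second call was lost when the median of all peaks was set to 0 (adjusted p 0.0623). This lower peak was named here after its values had been seen. It was the only pair of called downstream peaks behind the same gene.

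Among the 35 downstream peaks with less signal in dTAG13, 27 had an implied dTAG13 mean under the value of 3 reads per library. For such peaks the fitted fold change is not well determined, and the DMSO level over the value of 3 reads gives a lower bound. The bound does not include the error of the DMSO level. The bounds ran from 1.65-fold to 9.18-fold. With that floor in place of the low group, the median log2 fold change of the 35 was -1.87, against -3.77 as deposited. Of the 35, 22 followed protein-coding genes, 9 lincRNA genes, 2 processed pseudogenes and 2 genes of the unverified class TEC. They lay on 16 chromosomes.

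The smallest adjusted p was behind the lincRNA gene 5730419F03Rik (chr1:78593932-78594257), where DMSO had 32.5 and was at least 9.18-fold higher than dTAG13, with a log2 fold change in the authors' deposited table of -4.36 (SE 0.81, adjusted p 6.00e-05). Behind the lincRNA gene Gm42654 (chr5:120338077-120338408), 36.5 in DMSO stood against 6.99 in dTAG13, a log2 fold change in the authors' deposited table of -2.38 (SE 0.46, adjusted p 0.000128). Another 2 peaks stayed above 3 reads per library in dTAG13: 33.7 against 9.35 behind the lincRNA gene 2210011K15Rik and 32.7 against 8.62 behind Gm44530. As log2 fold changes the authors' deposited table lists -1.85 (SE 0.43) and -1.92 (SE 0.45). Both of these peaks were in the peak lists of both groups.

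At the lower peaks that follow, dTAG13 had fewer than 3 reads per library. Crb1, an apical polarity protein of the retina, was followed by the called downstream peak with the most negative log2 fold change in the authors' deposited table, -6.11 (SE 1.33, adjusted p 0.00100). It had 55 reads in DMSO and 0 in dTAG13 (chr1:139194478-139194679), at least 4.17-fold higher in DMSO. A peak between the facing ends of the kinase gene Slk and of Col17a1, a collagen of hemidesmosomes, was at least 6.25-fold higher in DMSO (22.1). Behind Galntl6, of the enzyme family that starts mucin-type glycosylation, DMSO had 21.6 and was at least 6.10-fold higher. The peak behind Mbtps1 had 18.3 in DMSO and was at least 5.17-fold higher there.

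The same held for the next 5 peaks. Behind Cpsf4l, a relative of a polyadenylation factor, the peak had 21.1 in DMSO and was at least 5.97-fold higher. Behind Pnrc1, a coactivator of nuclear receptors, the printed peak had 37 reads in DMSO and 0 in dTAG13, at least 2.70-fold higher, and the peak behind Gm21221 likewise had 37 and 0, at least 2.72-fold. The printed peak behind Fam114a2 had 29 and 0 reads, at least 2.16-fold. Behind Sun5, a nuclear envelope protein of sperm (named Efcab8 in the table), DMSO had 16.5 and was at least 4.66-fold higher. Behind Cnot10, a subunit of the CCR4-NOT deadenylase, 1 of 3 peaks was called, with 19.8 in DMSO and 3.81 in dTAG13 (in the authors' deposited table, log2 fold change -2.38, SE 0.64, adjusted p 0.0116). For the other 2, the authors' deposited table gives -0.89 (SE 0.70) and 0.53 (SE 0.65). The 3 peaks behind Capn11, a calpain of the testis, had log2 fold changes, from the authors' deposited table, of -1.53 (SE 0.76), -0.89 (SE 0.76) and -0.54 (SE 0.68), and none was called.

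The peak behind 2210406O10Rik, 51 bases past the gene end, had 44 reads in DMSO and 0 in dTAG13 and was at least 3.23-fold higher. A peak in an exon of the same gene, 165 bases away, had a log2 fold change in the authors' deposited table of -5.64 (SE 1.35, adjusted p 0.00353). Among the 35 lower downstream peaks, 3 had another called peak within 10000 bases, and among the 12 higher ones 1 had. The lower and the higher peak behind Zfp423 are each other's neighbour and count in both classes. The share among other peaks was not computed, so these counts cannot be read as many or few. Just inside the threshold lay the peaks behind Slc25a27 and Gm26641 with adjusted p of 0.0438 and 0.0496 in the authors' deposited table, and just outside it those behind Fbxl17 and Olfr1437 with 0.0516 and 0.0521.

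**Figure D3:**
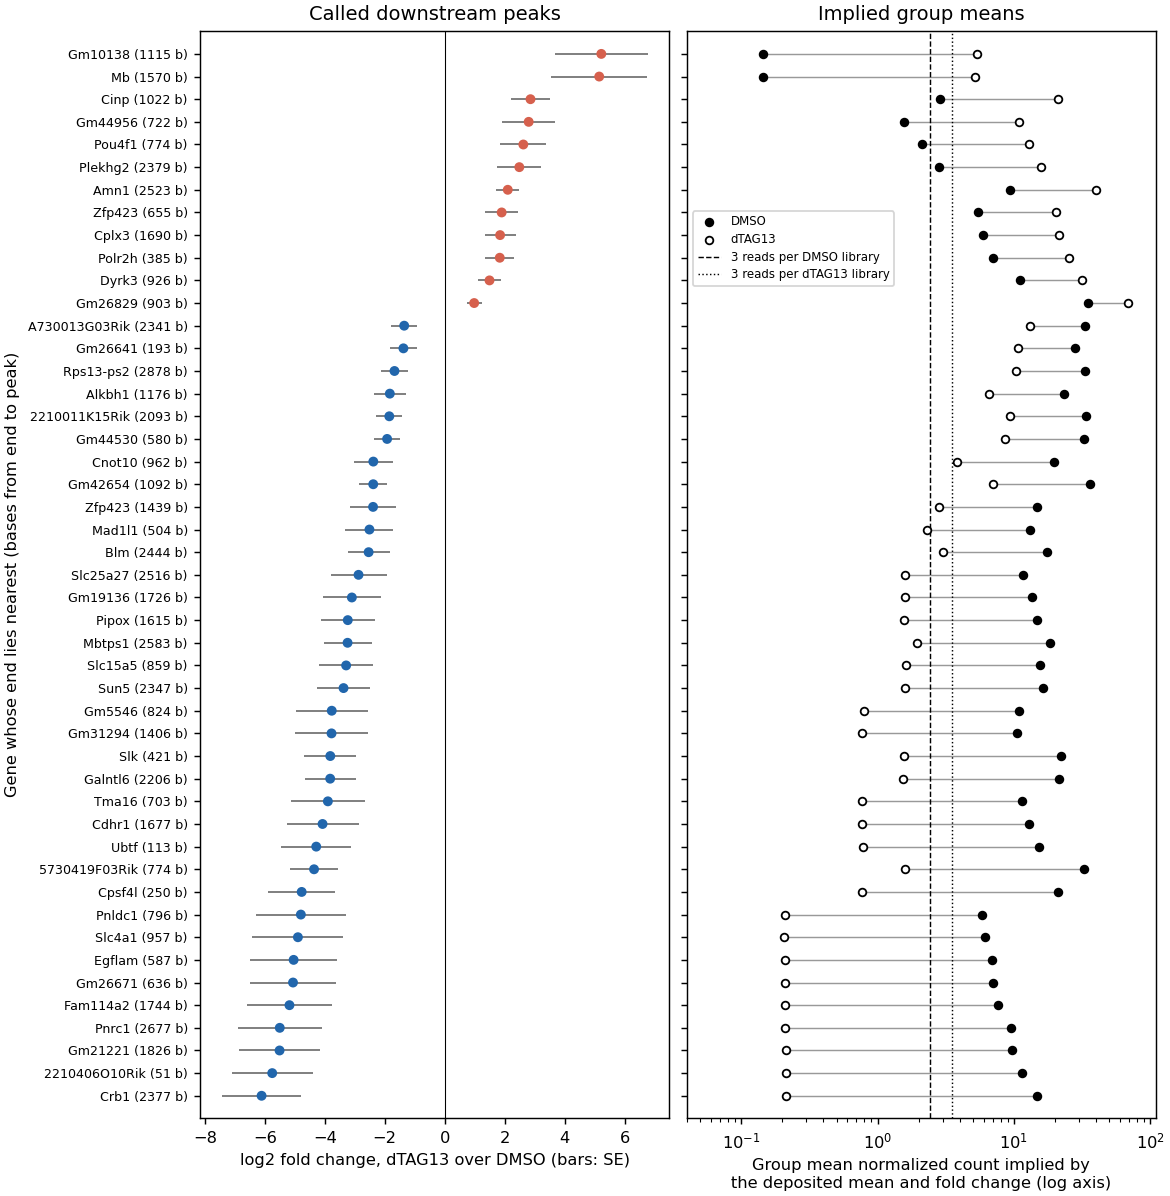
Left, deposited log2 fold change with SE bars (x axis) for the 47 called downstream peaks, 1 row per peak, named by the nearest gene end with its distance in bases; right, group means implied by the deposited values (x axis, log scale), filled for DMSO and open for dTAG13, with dashed and dotted lines at 3 reads per library. Of the 35 lower peaks, 27 have their dTAG13 value left of the dotted line, where it is not a level but a fitted value.

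The list of 42 patterning genes of the endoderm, streak and body axis had 6 downstream peaks and 0 of them were called, a number too small to read against the 5.26% of all peaks. Of the 3 peaks named Fgf8, a growth factor of the streak and midbrain, the strongest lay 2757 bases behind Fgf8 with 50.7 in DMSO and 59.9 in dTAG13 (log2 fold change 0.24, SE 0.25, in the authors' deposited table). The next lay behind Npm3, whose end points to the Fgf8 start, with 32.6 in DMSO and 24.96 in dTAG13 (-0.38, SE 0.34, in the authors' deposited table). The peaks behind Cdx2, a posterior homeobox gene, had 0.78 (SE 0.60) and 0.35 (SE 0.49), and the peak behind Foxa1, a forkhead gene of the endoderm, had -0.37 (SE 0.61), all in the authors' deposited table.

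Each group also has a list of peaks called on its libraries together. Of the 847 downstream peaks, 377 overlapped both lists (44.5%), 360 the DMSO list alone (42.5%) and 110 the dTAG13 list alone (12.99%). Among all other peaks the shares were 48.2%, 40.0% and 11.8%, and among the plus-strand counterparts 38.9%, 49.2% and 11.9%. The larger number in the DMSO list goes with the larger size factors of its libraries, 1.46 times those of dTAG13 on average, and the part of depth in it was not tested. Of the 35 lower peaks, 30 were in the DMSO list alone and 5 in both, and of the 12 higher peaks 10 were in the dTAG13 list alone and 2 in both. Lists and fold changes come from the same reads, so these counts are no independent evidence.

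The letters GGATTA were searched for on both strands within 100 bases of each peak midpoint. They were present in 17 of the 35 lower downstream peaks (48.6%, Wilson interval 33.0 to 64.4%), in 0 of the 12 higher ones (up to 24.2%) and in 71 of the 800 that were not called (8.88%, 7.10 to 11.0%). All other peaks of the table gave 34.0%, 1.29% and 7.95% for the same classes. The plus-strand counterparts, which share no peak with the downstream peaks, gave 18 of 37 (48.6%), 1 of 12 (8.33%) and 78 of 908 (8.59%). The reversed letters ATTAGG, of the same composition, were in 4 of the 35 (11.4%, 4.54 to 25.95%) and in 60 of the 800 (7.5%). Among all other peaks they were in 16.1% of the lower (14.8 to 17.6%) and 6.75% of the uncalled (6.56 to 6.94%). Among the counterparts they were in 16.2% (7.65 to 31.1%) and 8.37% (6.74 to 10.4%). Among all other peaks the reversed letters were thus also commoner in the lower class. The reversed letters share ATTA with the OTX letters, so they may not be a neutral background. Median GC content was 50% in the lower and 54.1% in the uncalled peaks, and median signal 8.14 and 6.47. Median length was 202 and 112 bases, so the window reached past the ends of most uncalled peaks. In the peaks as deposited the OTX letters were in 17 of the 35 and 53 of the 800 (6.62%). That search covered more bases in the lower peaks, which are longer. Read the other way, 17 of the 88 downstream peaks with the OTX letters were called lower (19.3%), against 18 of the 759 without them (2.37%). Among all other peaks, 879 of the 6141 with the letters were called lower, and among the plus-strand counterparts 18 of the 97. Over all peaks tested, 3.79% were called lower, so the contrast is not particular to downstream peaks. In downstream peaks the median log2 fold change was -1.25 with and -0.18 without the letters. Besides the 5 peaks printed above, the lower peaks with a match include those behind 5730419F03Rik, Gm42654, Galntl6 and Cpsf4l, while those behind Crb1, Slk and Mbtps1 have none in this window.

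SOX letters (ACAAAG or ACAATG) were in 20 of the 35 lower downstream peaks (57.1%, 40.9 to 72.0%) and in 204 of the 800 uncalled ones (25.5%, 22.6 to 28.6%). Among the plus-strand counterparts the shares were 35.1% (21.8 to 51.2%) and 27.9%, with overlapping intervals. Among all other peaks of the table they were in 42.1% of the lower and 23.9% of the uncalled. GATA letters (AGATAA) were in 13 of the 35 lower (37.1%, 23.2 to 53.7%), in 4 of the 12 higher (33.3%, 13.8 to 60.9%) and in 15.1% of the uncalled downstream peaks. All other peaks gave 30.1%, 17.3% and 15.1% for these classes, and the counterparts 16.2% of the lower and 15.0% of the uncalled. FOX letters (TGTTTAC) were in 2 of the 35 and in 6% of the uncalled peaks, and AP1 letters (TGANTCA) in 3 of the 35 and in 8.75%. TEAD letters were in 3 of the 12 higher downstream peaks (25%, 8.89 to 53.2%), against 11.2% of the uncalled ones. In the peaks as deposited, which can reach beyond the window, as the match behind Cplx3 does, they were in 5 of the 12 (41.7%, 19.3 to 68.0%), against 6.62%. Median length was 158.5 bases in the higher and 112 in the uncalled downstream peaks, so this search covered unequal lengths. Among the counterparts TEAD letters were in 6 of 12 higher and 12.2% of uncalled peaks within the window, but in 3 of 12 and 8.26% in the peaks as deposited. Within 50 bases of the midpoint they were in 1 of these 12, so the share in this small set moved with the stretch searched. All other peaks had TEAD letters in 22.7% of the 1004 higher and 11.5% of the uncalled peaks within the window. The shares there were 15.2% and 5.85% within 50 bases, and 23.8% and 8.59% in the peaks as deposited. Matches of the letters are descriptions and not bound sites.

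**Figure D4:**
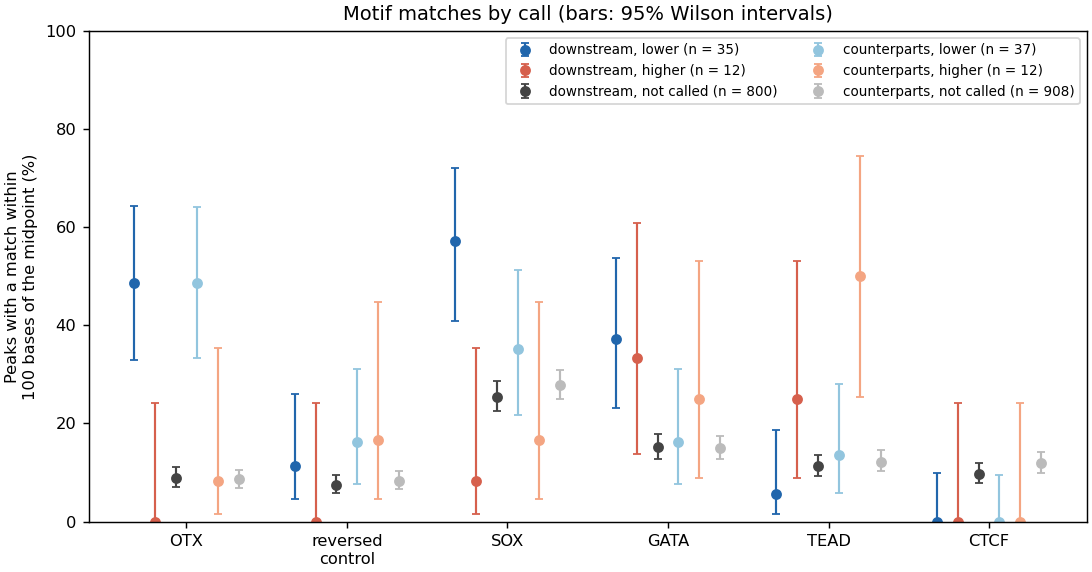
Share of peaks with a motif match within 100 bases of the midpoint (y axis, percent) for 6 motifs (x axis), by call, for downstream peaks and plus-strand counterparts, with 95% Wilson intervals as bars. The OTX share is 48.6% in the lower peaks of both sets, and no called peak of either set has a CTCF match.

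The CTCF consensus, searched on both strands, was in 78 of the 847 downstream peaks (9.21%, Wilson interval 7.44 to 11.3%), against 5.10% of all other peaks (4.94 to 5.27%), 6.05% of distal intergenic and 3.75% of promoter peaks. The plus-strand counterparts had 11.3% (9.43 to 13.4%). None of the 78 was called (Wilson interval up to 4.69%), against 5.26% of all peaks tested and 5.66% of the downstream peaks, and their median log2 fold change was -0.10. Of the 78, 45 were in the peak lists of both groups (57.7%), against 43.2% of the downstream peaks without the consensus. The printed peak behind Lag3, an inhibitory receptor of lymphocytes, had 16.4 in DMSO and 21.2 in dTAG13, with a log2 fold change in the authors' deposited table of 0.38 (SE 0.40). Outside the downstream peaks the consensus was in 15 of 2587 lower (0.580%), 11 of 1004 higher (1.10%) and 5.34% of uncalled peaks. The polyadenylation letters AATAAA were in 8.74% of downstream and 8.15% of other peaks, and the NFY letters CCAATCA, common at promoters, in 2.36% and 4.78%. T-box letters were in 21 of the 847 downstream peaks (2.48%) and in 1.70% of other peaks.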

How the data were processed

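Per the submitters' processing notes, the tools were fastp, Bowtie2, MACS2, featureCounts, HOMER 4.11 and ChIPseeker on build mm10, with no roles or order given. Read filters, duplicate handling, any shift of read ends and thresholds are not given in the sources used here. Signal, per the file headers of the authors' deposited table, is a DESeq2-style mean of counts normalized by size factors over 6 libraries. Log2 fold changes (dTAG13 over DMSO) and their SE were used as deposited. Dividing one by the other gives the deposited score (largest difference 8.72e-07), and the deposited p-value carries a Benjamini-Hochberg adjustment over 69128 peaks (largest difference 5.26e-08). The pooled peak lists hold positions only, per the file headers.

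The table gives no values per library, so the authors' calls were counted and no test was run. Group means follow from the mean and the fold change. Peaks with an extreme log2 fold change and low signal were taken to have reads in 1 group only. Of these, 91.5% (DMSO) and 76.5% (dTAG13) gave whole reads within 1e-06, which gave the size factors. The floor was 3 reads per library. Gene ends came from GENCODE mouse release 21, sequences from GRCm38.p6, and 0 of 21 chromosomes had a peak past its end. Positions are 1-based. List overlap meant at least 1 base. Members, gene lists and motifs were chosen with earlier results of these data known. Named peaks are up to 12 called peaks per direction by p, the 5 strongest, the 5 most extreme called values per direction, genes with 3 or more peaks, and peaks of listed or marked genes. Shares have 95% Wilson intervals. The software was pysam 0.24.0, scipy 1.17.1, pandas 2.3.3, numpy 2.4.6 and Python 3.11.15, and functions were tested on simulated data.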

Additional observations from a re-analysis of the deposited data

How the results depend on the processing

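No paired analysis was possible because each peak has a single deposited mean over all libraries. Leaving out libraries was not run for the same reason. Of 45 alternative values, 25 stayed within set limits of the reported value and 20 moved. The limits were 1.5 times for a count and the Wilson interval for a share. For the median log2 fold change the limit was its sign alone, which stayed negative. A change of direction was looked for in that median only, not in counts or shares. That median went from -0.28 to -0.01 with a mean normalized count of at least 10, and the TEAD share of higher peaks from 25% to 41.7% in the peaks as deposited. The counts of 35 lower and 12 higher peaks became 14 and 5 at an adjusted p under 0.01, 45 and 22 under 0.1, and 14 and 7 with a mean normalized count of at least 10, where fewer peaks were tested. Setting the median of all peaks to 0 gave 29 and 21, and 41 of the 47 peaks stayed called; those lost were behind Mad1l1, A730013G03Rik, Gm31294, Zfp423 (the lower peak), Slc25a27 and Gm26641. The Gm26641 call was also lost when p-values were adjusted over all peaks (adjusted p 0.0506). Peaks under 1 kb gave 15 and 5, and those of 1 to 3 kb 20 and 7, by construction. Adding the plus-strand counterparts, an alternative chosen after seeing the data, gave 72 and 24. Under a 50% overlap, 37.7% of downstream peaks were in both lists and 47.6% in the DMSO list alone. A start site lay within 3000 bases for 4.13% and within 5000 bases for 34.7%. The OTX share of lower peaks was 31.4% within 50 bases of the midpoint, where that of uncalled peaks was 5.25%. Weak signal limits precision: 297 of the 847 peaks had a mean normalized count under 5.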

Other observations

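The table marks genes as down or up in columns that come from elsewhere and whose making is not stated in the sources used here. Downstream peaks carried the down mark in 15 cases, over 14 genes, and 0 of them were called. They carried the up mark in 22 cases, over 18 genes, and 1 of them was called. Beside 5.26% of all peaks, neither count stands apart. The call was the peak 587 bases behind Egflam, which encodes the matrix protein pikachurin. This peak had 27 reads in DMSO and 0 in dTAG13 and was at least 1.94-fold higher in DMSO (adjusted p 0.0185 in the authors' deposited table). The comparison and sign behind the mark are not stated, so the direction of the peak cannot be set against it. Among the downstream peaks, 10 follow or are named for olfactory receptor genes and 8 keratin genes, and 0 of these were called. Of 27 peaks at Slc genes 4 were lower, and of 11 at Zfp genes 1 was lower and 1 higher. With 5.26% of all peaks called, counts this small say nothing about these families.

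The whole reads recovered from peaks with reads in 1 group only were mostly even numbers. Of 6049 nonzero counts in DMSO libraries 4539 were even (75.04%), and of 632 in dTAG13 libraries 510 (80.7%). The recovered size factors were 1.09, 1.31 and 1.35 in DMSO and 0.780, 0.823 and 0.961 in dTAG13, and which library each belongs to was not identified.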
